A study of Mus musculus with 4 samples.

Results

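Genes of the p53 response were followed in cultured mesenchymal stem/progenitor cells from mouse bone marrow. The set holds 33 genes, chosen by name as the p53 gene, its main inhibitors, well-known p53 targets and DNA damage response genes. The choice was made with earlier results of these data known, so shares of members set beside those of all genes are descriptive only. All 33 were found among the 41029 genes of the table. These stromal cells of C57BL/6 mice were grown in MesenCult medium and trypsinised before RNA extraction. There were 2 libraries labelled Tet2-/- (Tet2 knockout 1 and 2) and 2 labelled wild type, and no other treatment or allele is named. The enzyme Tet2 converts methylated cytosine to its oxidised forms, and its knockout is set against wild type. Values are FPKM, which set a gene's reads against the length of its transcript and the depth of the library.

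The transcription factor p53 is held at a low level by the ubiquitin ligase Mdm2 and its partner Mdm4. Damage kinases free it from them, after which it switches on genes for growth arrest, DNA repair and apoptosis, as well as Mdm2 itself. In cultured stromal cells this response limits growth under replication and oxidative stress.

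Depth ran from 10096878 to 21337246 reads over genes per library, and between 12039 and 12342 genes reached 1 FPKM. Whether the replicates came from different mice or cultures is not stated, so p-values measure only the spread between these 4 samples. The wild-type libraries were much closer to counting noise than the knockout-labelled libraries. Their mean chi-square per gene was 2.52, where counting alone gives 1, against 193 between the knockout-labelled libraries. The median over genes was 0.77 in wild type and 16.6 between the knockout-labelled libraries. The median SD on the log2 scale was 0.24 between the knockout-labelled libraries and 0.06 between the wild-type libraries. Tet2 itself, at 11.6 and 9.70 FPKM in the knockout-labelled libraries and 7.01 and 8.39 FPKM in wild type, was not lower under the knockout label. A total over the gene cannot reveal a deleted exon, and the libraries are called by their labels. Of 12 stromal markers, Pdgfrb, Cd44, Ly6a and Col1a1 were present in every library, and the 12 summed to 3573 FPKM in knockout 1 and 14027 in knockout 2, against 7431 and 7121 in wild type. The sum in knockout 2 does not describe most of them. Of the 11 that averaged at least 1 FPKM, 7 (63.6%) were below both wild-type libraries there, beside 43.7% of all genes, and 4 above both. Their median log2 difference was -0.83 in knockout 2 and -0.44 in knockout 1. Eng stood at 1.53 and 1.59 FPKM in knockout, against 110 and 102 FPKM in wild type. The summed level of 5 osteoblast markers was 1296 FPKM in knockout 2 and 63.8 in knockout 1, against 70.4 and 71.5 in wild type, with Bglap listed at 0 in knockout 1 and wild type 2. Macrophage markers summed to 63.6 and 101 FPKM in knockout, with wild type at 92.7 and 89.9 FPKM over 8 genes, with none at 0. Endothelial, neutrophil, lymphocyte and erythroid markers summed to less than that in every library, at most 1.48 FPKM per list, and all 3 erythroid genes were at 0 throughout. Adipocyte markers summed to 4.92 and 21.4 FPKM in knockout, with wild type at 4.15 and 4.12 FPKM over 4 genes.

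Knockout 2 stands apart, so each result below is given for knockout 1 and knockout 2 separately. In knockout 2 many classical p53 targets were low, among them the cyclin gene Ccng1, the p53 inhibitor gene Mdm2 and the death receptor gene Eda2r. In knockout 1 these same genes were at or slightly above the wild-type level. Fas, Perp, Plk2 and Gadd45a were at least 2-fold below wild type in both knockout-labelled libraries, as were 1.13% of all genes. A further 11 members were lower in both without being 2-fold lower in each on the log2(FPKM + 1) scale. Together these were 15 of the 33 members (45.5%), where 24.8% of all genes were below both wild-type libraries in both. No member passed the test over all genes, where 2 of 12344 genes passed.

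**Figure D1:**
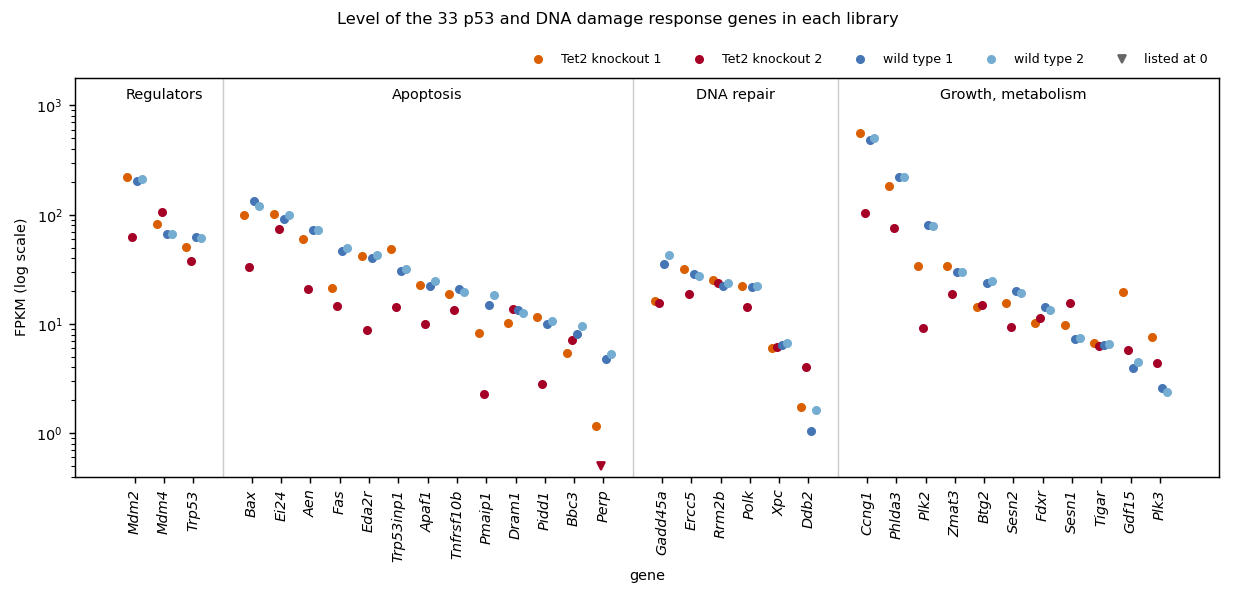
Level of each of the 33 genes (FPKM, log axis) in the 2 knockout-labelled and 2 wild-type libraries, by role and ordered by wild-type level; a triangle marks a value listed at 0. The dark red points of knockout 2 lie well below the others for Mdm2, Bax, Aen, Eda2r, Pidd1 and Ccng1, while Perp is listed at 0 there.

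Sequence near RefSeq starts of these genes is shown because p53 binds a known consensus, made of a 10-base half-site that reads the same on both strands. Windows of 250 bases before to 50 after a RefSeq start (GRCm38.p6) were on hand for 25 of the 33 genes. The p53 half-site consensus was found at 1 or more starts in 9 of the 25 genes, or 36.0%, and in 9.55% of all 27025 genes with such windows. A gene with more listed starts had more chances of a match, and the number of starts per gene was not compared. The full site, 2 half-sites with a gap of up to 13 bases, was found in none of the 25 and in 0.074% of all genes. The 9 genes were Trp53, Mdm2, Bax, Aen, Ei24, Gadd45a, Polk, Ccng1 and Sesn1. A match is a run of letters, and binding was not measured. Ddb2, Perp, Pmaip1, Rrm2b, Tnfrsf10b, Trp53inp1, Xpc and Zmat3 were not searched. The lines below give the site in capitals with its flanks, 5′ to 3′ on the strand of the gene (GRCm38.p6), for genes low in knockout 2 alone (Ccng1, Mdm2), low in both but most in knockout 2 (Trp53, Bax), low in both alike (Gadd45a) and high in both (Sesn1).
Ccng1, minus strand, chr11:40755452-40755481: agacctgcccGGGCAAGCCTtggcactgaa
Mdm2, minus strand, chr10:117710925-117710954: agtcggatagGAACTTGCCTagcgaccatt
Trp53, plus strand, chr11:69580274-69580303: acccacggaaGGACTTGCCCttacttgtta
Bax, minus strand, chr7:45467080-45467109: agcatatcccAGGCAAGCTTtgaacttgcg
Gadd45a, minus strand, chr6:67037428-67037457: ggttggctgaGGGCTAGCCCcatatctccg
Sesn1, plus strand, chr10:41887256-41887285: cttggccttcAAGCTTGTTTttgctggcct
Counted from the RefSeq start searched, the sites began at position -185 in Ccng1, -186 in Mdm2, -75 in Trp53, -201 in Bax, -40 in Gadd45a and -173 in Sesn1. For 2 of these genes the stretch is not upstream of the gene as annotated in GENCODE. That of Sesn1 lies well inside the gene, which spans 41809935 to 41908424. That of Gadd45a begins at the gene's first base, 67037457. Genes on each side of the comparison thus held a half-site.

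Among the regulators, Trp53, the gene of p53, was lower in both knockout-labelled libraries, most in knockout 2. It stood at 50.4 and 38.05 FPKM in knockout, with wild type at 62.7 and 61.3 FPKM, so the groups did not overlap. The difference was -0.49 on the log2(FPKM + 1) scale (SE 0.18) and did not pass over all genes (adjusted p = 0.292, limma). Its level in knockout 2 was 0.614 of the wild-type mean.

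Mdm2, both the main inhibitor of p53 and one of its targets, stood at 219.8 and 62.8 FPKM in knockout, with wild type at 204 and 211 FPKM. Knockout 1 was thus above both wild-type libraries and knockout 2 was 3.31-fold below their mean. The pooled difference of -0.81 (SE 0.64, adjusted p = 0.55, limma) averages these opposite sides. Mdm4, the second inhibitor, stood at 81.8 and 105 FPKM in knockout, above 66.5 in each wild-type library (log2 0.47, SE 0.17, adjusted p = 0.283, limma). Among the regulators the 2 inhibitors therefore lay on opposite sides of wild type in knockout 2.

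**Figure D2:**
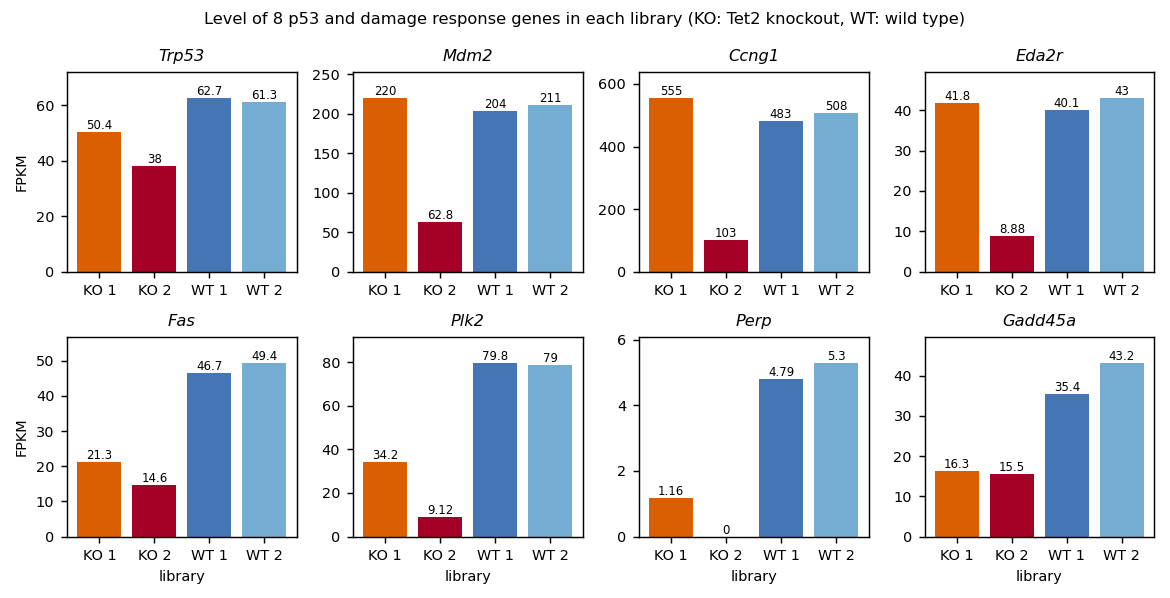
Level (FPKM, bars from 0) of 8 genes in each library, with the value above each bar. Mdm2, Ccng1 and Eda2r are low in knockout 2 alone; Fas, Plk2, Perp and Gadd45a are low in both knockout-labelled libraries; Trp53 is lower in both, with its lowest value of 38.05 FPKM in knockout 2.

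All 13 apoptosis genes had a lower estimate in knockout, where 46.8% of all genes did, with a median log2 difference of -0.71 beside 0.03 over the 12344 genes tested. In 7 of these 13, knockout 1 and knockout 2 were each below the lower wild-type value (24.8% of all genes), and in none were they both above the higher one (29.4% of all genes). The median was -1.57 in knockout 2 and -0.26 in knockout 1. Knockout 2 was below both wild-type libraries in 12 of the 13 (92.3%), beside 43.7% of all genes, and above both in Dram1. Knockout 1 was below both in 8, beside 41.0% of all genes, and above both in 3, where 5875 of the 12344 genes tested were. None passed over all genes.

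The death receptor genes come first in the pathway. Fas, which encodes the receptor for Fas ligand, stood at 21.3 and 14.6 FPKM in knockout, with wild type at 46.7 and 49.4 FPKM. Both knockout-labelled libraries lay well below both wild-type libraries, 2.68-fold on the means. The log2 difference was -1.39 with a SE of 0.21, and the unadjusted p of 0.00287 gave an adjusted p of 0.202 in limma. Eda2r, a receptor of the tumour necrosis factor family and a p53 target, stood at 41.8 and 8.88 FPKM in knockout, with wild type at 40.1 and 43.0 FPKM. Knockout 1 lay inside the wild-type range while knockout 2 was 4.68-fold below the wild-type mean; this gene was singled out after its values were seen. Tnfrsf10b, the receptor for the death ligand TRAIL, stood at 18.7 and 13.3 FPKM in knockout, with wild type at 20.9 and 19.7 FPKM. Its groups did not overlap, but its log2 difference was only -0.34.

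Next come the members that act at the mitochondrion. Pmaip1, which encodes the BH3-only protein Noxa, stood at 8.28 and 2.27 FPKM in knockout, with wild type at 14.8 and 18.6 FPKM (log2 -1.68, SE 0.56, adjusted p = 0.276, limma). Bax, the pore-forming effector, stood at 99.7 and 33.4 FPKM in knockout, with wild type at 132 and 120 FPKM (log2 -1.11, SE 0.56, adjusted p = 0.383, limma). Both genes were lowest in knockout 2, Pmaip1 by 7.36-fold and Bax by 3.79-fold from the wild-type mean. Bbc3, the gene of the BH3-only protein Puma, departed from this and was lowest in knockout 1, at 5.48 and 7.07 FPKM in knockout against 8.13 and 9.66 in wild type. Apaf1, the scaffold that activates caspase 9, stood at 22.7 and 9.95 FPKM in knockout, with wild type at 22.2 and 24.7 FPKM, so that knockout 2 alone lay outside the wild-type range. It too was singled out after its values were seen.

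Perp, which encodes a membrane protein of desmosomes and of p53-dependent death, was the weakest signal of the set in knockout. It stood at 1.16 and 0 FPKM in knockout, from 35 and 0 reads, and at 4.79 and 5.30 FPKM in wild type, from 92 and 179 reads. The 0 in knockout 2 allows up to 3 reads, or 0.074 FPKM, counting error only. Both knockout-labelled libraries lay below both wild-type libraries (log2 -2.04, SE 0.44, adjusted p = 0.229, limma). The size of this difference is set by the pseudocount because of the 0: it was -3.85 with a pseudocount of 0.1, -5.54 with 0.01 and -5.65 with voom.

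The remaining apoptosis genes split by library. Pidd1, the scaffold of the caspase 2 complex, stood at 11.6 and 2.80 FPKM in knockout, with wild type at 9.92 and 10.7 FPKM. Trp53inp1, a stress protein that favours p53-dependent death, stood at 48.3 and 14.4 FPKM in knockout, with wild type at 30.5 and 32.1 FPKM. In both genes knockout 1 was above and knockout 2 below wild type, so their means hardly describe either library. Aen, a nuclease of apoptotic nuclei, was below wild type in both, at 60.2 and 20.9 FPKM in knockout against 72.0 and 72.7; it was singled out after its values were seen. Ei24 and Dram1, a p53-induced gene of the endoplasmic reticulum and one of autophagy, had log2 differences of only -0.13 and -0.12, and their knockout-labelled libraries lay on opposite sides of wild type.

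Of the 6 repair genes, 2 were under the wild-type range in knockout 1 and knockout 2 alike and 2 over it, 33.3% each beside 24.8% and 29.4% of all genes. Their median log2 difference was -0.32 in knockout 2 and 0.09 in knockout 1. Gadd45a, a damage-induced protein that binds PCNA and activates stress kinases, had the smallest p of the 33 members. It stood at 16.3 and 15.5 FPKM in knockout, with wild type at 35.4 and 43.2 FPKM, from 190 and 243 reads against 263 and 564. The 2 knockout-labelled values were close to each other and 2.47-fold below wild type on the means. The log2 difference was -1.25 with a SE of 0.15 (unadjusted p = 0.00121, adjusted p = 0.156, limma). Its exons share 337 of 1764 bases with the opposite-strand transcript E230016M11Rik, which averaged 1.37 FPKM. Whether counting used strand is not given in the sources used here.

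The damage recognition genes of nucleotide excision repair did not follow it. Ddb2, which finds ultraviolet lesions, stood at 1.75 and 4.03 FPKM in knockout, with wild type at 1.06 and 1.62 FPKM, from 52 and 161 reads against 20 and 54. Its exons share 652 of 2736 bases with the opposite-strand gene Acp2, which averaged 32.2 FPKM, so that without strand reads on the shared bases cannot be told apart. Xpc, which recognises distorted DNA, stood at 6.04 and 6.16 FPKM in knockout, with wild type at 6.40 and 6.68 FPKM, a log2 difference of -0.09 (SE 0.14).

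The other repair genes were near wild type in knockout 1 and lower or level in knockout 2. Ercc5, the endonuclease that cuts beside a lesion, stood at 31.7 and 18.8 FPKM in knockout, with wild type at 28.7 and 27.6 FPKM. Polk, a polymerase that copies past damage, stood at 22.4 and 14.3 FPKM in knockout, with wild type at 21.6 and 22.3 FPKM. For both genes knockout 2 was the only library well apart from the other 3. Rrm2b, the p53-induced subunit of ribonucleotide reductase that supplies nucleotides for repair, stood at 25.5 and 23.9 FPKM in knockout, with wild type at 22.1 and 23.5 FPKM (log2 0.11, SE 0.12).

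Of the 11 growth control and metabolism genes, 5 (45.5%) were under the wild-type range in knockout 1 and knockout 2 alike, beside 24.8% of all genes, and 3 (27.3%) over it, close to the 29.4% of all genes. Their median log2 difference was -0.64 in knockout 2 and 0.04 in knockout 1. Ccng1, the gene of cyclin G1 and the most abundant member, stood at 555 and 103 FPKM in knockout, with wild type at 483 and 508 FPKM. Knockout 1 was the highest of the 4 libraries and knockout 2 was 4.83-fold below the wild-type mean, from 4723 reads. The pooled log2 difference of -1.05 therefore had a SE of 0.87 (adjusted p = 0.563, limma).

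Plk2, a polo-like kinase of the centriole cycle, was low in both, with a log2 difference of -2.09 (SE 0.65, adjusted p = 0.26, limma). It stood at 34.2 and 9.12 FPKM in knockout, with wild type at 79.8 and 79.0 FPKM, so knockout 1 was 2.32-fold and knockout 2 8.71-fold below the wild-type mean. Btg2, an antiproliferative gene that acts on mRNA deadenylation, was low to a like degree in both, at 14.3 and 15.0 FPKM in knockout, with wild type at 23.8 and 25.0 FPKM (log2 -0.70, SE 0.12, adjusted p = 0.211, limma).

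Phlda3, an inhibitor of Akt signalling, stood at 182 and 75.9 FPKM in knockout, with wild type at 222.5 and 222.6 FPKM. Sesn2, a sestrin that restrains mTORC1, stood at 15.7 and 9.41 FPKM in knockout, with wild type at 20.2 and 19.1 FPKM. Both genes were below wild type in both knockout-labelled libraries and lowest in knockout 2. Zmat3, an RNA-binding p53 target, stood at 34.2 and 19.0 FPKM in knockout, with wild type at 30.01 and 30.2 FPKM, with knockout 1 above and knockout 2 below. Fdxr, a mitochondrial reductase of iron-sulphur and steroid metabolism, stood at 10.2 and 11.4 FPKM in knockout, with wild type at 14.2 and 13.5 FPKM, below in both. Tigar, a fructose bisphosphatase that slows glycolysis, stood at 6.72 and 6.30 FPKM in knockout, with wild type at 6.37 and 6.62 FPKM, which left it level; its log2 difference of 0.00 changes sign with the scaling, at -0.067 under quantile normalization.

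Against the rest of the group, 3 genes lay above both wild-type libraries. Gdf15, a secreted stress cytokine, stood at 19.7 and 5.77 FPKM in knockout, with wild type at 3.99 and 4.46 FPKM. Plk3, a stress-responsive polo-like kinase, stood at 7.60 and 4.37 FPKM in knockout, with wild type at 2.57 and 2.39 FPKM (log2 0.96, SE 0.29, adjusted p = 0.253, limma). Both were highest in knockout 1. Sesn1, the other sestrin, stood at 9.89 and 15.7 FPKM in knockout, with wild type at 7.35 and 7.39 FPKM (log2 0.69, SE 0.25, adjusted p = 0.297, limma), so that Sesn1 and Sesn2 lay on opposite sides of wild type.

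**Figure D3:**
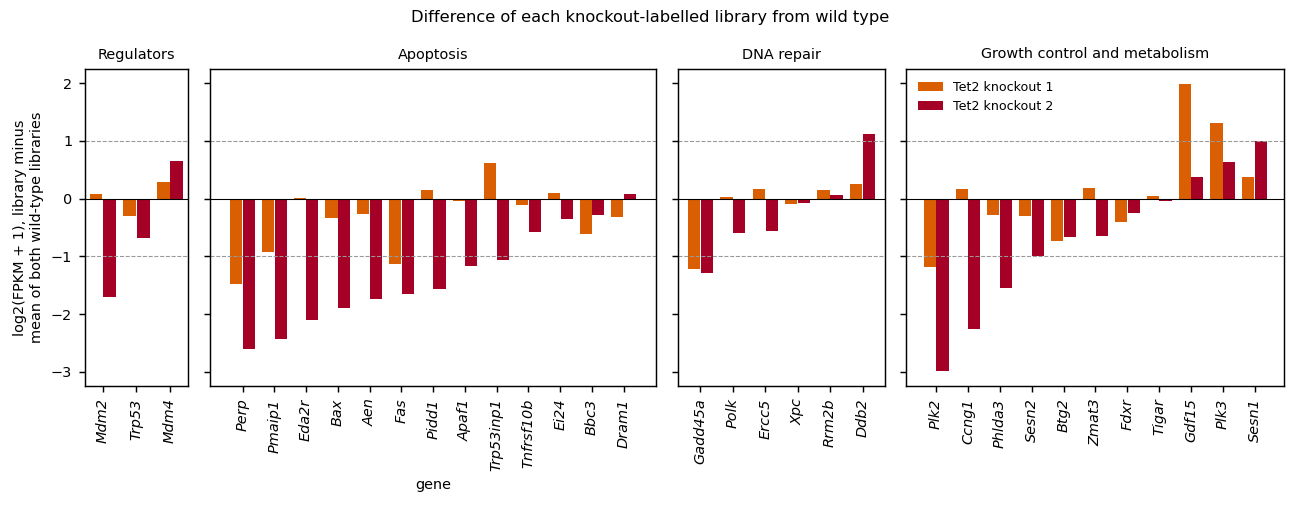
Difference of each knockout-labelled library from the mean of both wild-type libraries on the log2(FPKM + 1) scale, for every gene by role; dashed lines mark a 2-fold difference. Knockout 2 bars reach from -2.99 (Plk2) to 1.11 (Ddb2), and those of knockout 1 from -1.48 (Perp) to 1.99 (Gdf15).

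Over the whole set, none of the 33 genes passed at an adjusted p under 0.05 in limma, where 2 of 12344 genes passed (0.0162%), and none passed with voom on the recovered reads, where 0% of genes did; voom gave 8 members and 2042 genes at an unadjusted p under 0.05. At an unadjusted p under 0.05 there were 9 members, 27.3% of them, against 17.1% of all genes. Of these, 7 were on the lower side (Gadd45a, Fas, Btg2, Perp, Plk2, Pmaip1 and Trp53), where the background is 8.29%, and 2 on the higher side (Plk3 and Mdm4), where it is 8.84%. For a single gene the smallest p that exact permutation of 2 and 2 libraries allows is 0.33, two-sided. Without knockout 1, 28 members passed in limma, 23 lower and 5 higher, and without knockout 2, 19 passed, 14 lower and 5 higher; these fits take the remaining knockout-labelled library to vary as little as wild type. Over all genes 7415 and 5734 passed in those fits.

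Groups without overlap were also counted, with no model. Of the 33 members, 15 (45.5%) were under the wild-type range in knockout 1 and knockout 2 alike, where 24.8% of all genes were, and 6 (18.2%) were over it, where 29.4% were. A further 10 members had knockout 1 and knockout 2 on opposite sides of wild type, 30.3% beside 27.9% of all genes. The median log2 difference was -0.45 for the members and 0.03 for all genes tested.

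The libraries differed in how many members stood at least 2-fold apart from both wild-type libraries. Such calls were made as a difference of at least 1 on the log2(FPKM + 1) scale, which is stricter than a ratio of FPKM for low genes. In knockout 2, 14 of 33 members (42.4%) were at least 2-fold lower and none higher on this scale, where 5.87% of all genes were lower and 5.14% higher. They were Mdm2, Bax, Pmaip1, Fas, Eda2r, Perp, Apaf1, Pidd1, Aen, Trp53inp1, Gadd45a, Ccng1, Plk2 and Phlda3, of which 9 belong to apoptosis. By plain ratio of FPKM to the wild-type mean, Ddb2 (3.01-fold) and Sesn1 (2.13-fold) were higher in knockout 2, and Sesn2 was 2.09-fold lower. In knockout 1, 4 members (12.1%) were at least 2-fold lower, where 2.37% of all genes were, and 2 were higher (Plk3 and Gdf15), where 3.0% were. The 4 were Fas, Perp, Gadd45a and Plk2, and each of them was also 2-fold lower in knockout 2, where 1.13% of all genes were lower in both. Pmaip1 too was 2.02-fold below the wild-type mean in knockout 1 by plain ratio of FPKM. The median difference of the members was -0.67 in knockout 2 and -0.04 in knockout 1. Knockout 2 was under the wild-type range in 26 of 33 members (78.8%) and 43.7% of all genes, and knockout 1 in 16 members and 41.0% of all genes. Knockout 2 was below knockout 1 in 25 members (75.8%) and in 51.5% of all genes.

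**Figure D4:**
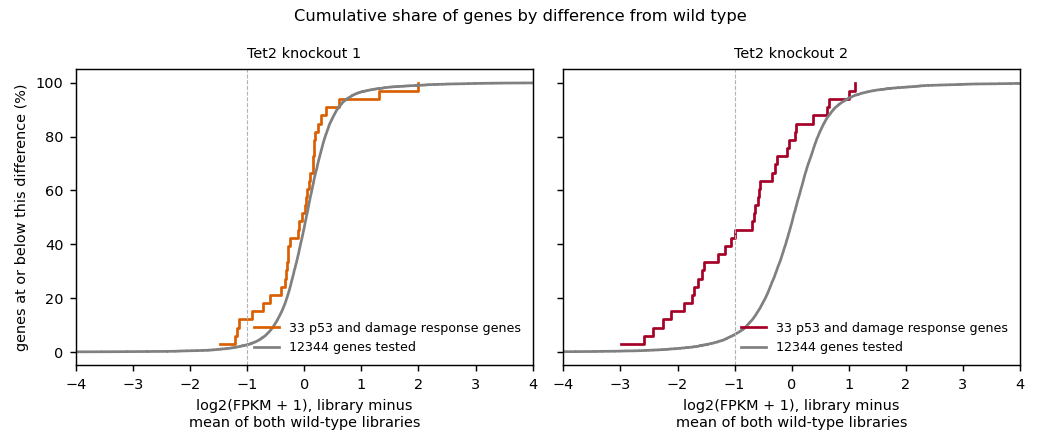
Cumulative share of genes (%) by their difference from the mean of both wild-type libraries on the log2(FPKM + 1) scale, for the 33 members (coloured) and all 12344 genes tested (grey), in knockout 1 and knockout 2; the dashed line marks a 2-fold lower level. In knockout 2 the curve of the members lies left of that of all genes over most of its range, with medians of -0.67 and 0.03, while in knockout 1 the medians are -0.04 and 0.03.

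Other measures moved in knockout 2 as well. The osteoblast markers given above were high in that library alone, and in bulk RNA fewer cells of a type and less RNA per cell cannot be told apart. Genes of chromosome 7, where Bax, Bbc3, Pidd1 and Aen lie, had a median log2 difference of -0.55 in knockout 2 and -0.03 in knockout 1. In knockout 2 the median was -0.32 for chromosome X, where Eda2r lies. It was -0.23 for chromosome 10, where Mdm2, Perp, Apaf1, Dram1 and Sesn1 lie, and at most 0.25, on chromosome 3. In knockout 1 the lowest median was -0.46, on chromosome 12. With the median of each gene's chromosome taken off, a step chosen after the data were seen, 12 members (36.4%) were still at least 2-fold lower in knockout 2, where 5.19% of all genes were, and Apaf1 and Pidd1 were not. The part of the osteoblast markers in these counts was not tested.

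Proliferation genes, set beside growth control, differed between the knockout-labelled libraries. The summed level of 28 such genes was 1834 FPKM in knockout 1 and 1573 in knockout 2, against 1593 and 1622 in wild type, and their median log2 difference was 0.24 in knockout 1 and -0.09 in knockout 2. In knockout 1, 22 of the 28 were above both wild-type libraries, where 5875 of the 12344 genes tested were. In knockout 2, 16 (57.1%) were below both, beside 43.7% of all genes. In 14 (50%) the libraries lay on opposite sides, beside 27.9% of all genes. None passed in limma and 2 (7.14%) had an unadjusted p under 0.05, fewer than the 17.1% of all genes, with Gmnn on the lower and Top2a on the higher side. Gmnn, the inhibitor of replication licensing, stood at 20.7 and 21.1 FPKM in knockout, with wild type at 26.8 and 28.2 FPKM.

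Of 30 further p53 targets, 29 were tested and none passed in limma. An unadjusted p under 0.05 was reached by 5 (17.2%), beside 17.1% of all genes. All 5 were lower, where the background is 8.29%. Under the wild-type range in both knockout-labelled libraries were 10 (34.5%) and over it 4 (13.8%), with 13 (44.8%) on opposite sides, where the shares of all genes are 24.8%, 29.4% and 27.9%. In knockout 2, 9 were at least 2-fold lower, 31.0% beside 5.87% of all genes, and 1 was higher; in knockout 1, 1 was lower, 3.4% beside 2.37%. The higher one was Thbs1, which encodes the matrix protein thrombospondin 1, at 910.0 and 3742 FPKM in knockout, with wild type at 905 and 878 FPKM; it was named after its values were seen. Ptp4a3, a phosphatase gene, stood at 10.5 and 9.06 FPKM in knockout, with wild type at 20.7 and 20.5 FPKM (log2 -1.01, SE 0.14, adjusted p = 0.188, limma). Ccng2, which encodes cyclin G2, stood at 13.3 and 8.82 FPKM in knockout, with wild type at 22.3 and 21.8 FPKM. Cdkn1a, the p21 gene of growth arrest, stood at 211 and 165 FPKM in knockout, with wild type at 211 and 197 FPKM, so that it was 0.30 lower on the log2 scale in knockout 2 while Ccng1 was 2.26 lower.

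Genes that act on p53 were listed apart. Of 20 tested, 8 (40%) lay above both wild-type libraries and 3 (15.0%) below both, beside 29.4% and 24.8% of all genes, and none passed in limma. An unadjusted p under 0.05 was reached by 7 (35.0%), beside 17.1% of all genes, with 6 of the 7 higher. Hipk2, a kinase that phosphorylates p53 after damage, stood at 14.7 and 13.2 FPKM in knockout, with wild type at 5.68 and 5.47 FPKM (log2 1.18, SE 0.14, adjusted p = 0.156, limma). Setd7 and Kmt5a, which methylate p53, had log2 differences of 0.71 and 0.66.

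Of 20 tested sensor and checkpoint genes of the damage response, 10 (50%) lay above both wild-type libraries and 2 (10%) below both. Of 25 strand break repair genes, 9 (36.0%) lay above both and 3 (12%) below both, beside the same 29.4% and 24.8% of all genes. None passed in limma. An unadjusted p under 0.05 was reached by 2 (10%) and 3 (12%), under the 17.1% of all genes. All of them were higher, where the background is 8.84%. Atr, the kinase of stalled replication forks, stood at 20.2 and 18.0 FPKM in knockout, with wild type at 13.1 and 14.4 FPKM, and Brca2, a gene of strand break repair, at 11.9 and 12.9 FPKM in knockout, with wild type at 8.047 and 7.998 FPKM. No sensor or strand break gene was 2-fold lower in knockout 2, where 5.87% of all genes were, a share that predicts few in lists of this size.

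Of 34 excision and mismatch repair genes tested, 10 (29.4%) lay above both, as did 29.4% of all genes, and 5 (14.7%) below both, with 4 (11.8%) at an unadjusted p under 0.05, under the 17.1% of all genes, and none past the threshold in limma. Neil3, a glycosylase gene, stood at 18.4 and 19.3 FPKM in knockout, with wild type at 9.84 and 9.55 FPKM (log2 0.89, SE 0.13, adjusted p = 0.188, limma). Of 24 BCL2 family, caspase and related genes, 6 (25.0%) lay above both and 7 (29.2%) below both, near the shares of all genes. Again none was past the threshold in limma, and 3 (12.5%) had an unadjusted p under 0.05, also under the 17.1% of all genes. Bcl2l11, which encodes the BH3-only protein Bim, stood at 4.03 and 3.33 FPKM in knockout, with wild type at 6.38 and 6.48 FPKM. In knockout 2, 2 of the 34 repair genes (5.88%) and 0 of these 24 were at least 2-fold lower, where 5.87% of all genes were, so the repair genes stood at the background share.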

How the data were processed

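RNA-seq libraries of 2 knockout-labelled and 2 wild-type samples were analysed from 1 deposited table of FPKM. Alignment and counting tools, per the submitters' processing notes, include HTSeq 0.6.1, TopHat2 2.0.12 and Bowtie2 2.2.3, with the build mm10; how the authors set gene lengths is not given in the sources used here. Symbols and coordinates came from GENCODE M21 (GRCm38), which names 40456 of the 41029 identifiers. The FPKM are quotients of whole numbers, from which library totals and reads were worked out for all 25309 genes above 0; these reads are lower bounds and make up at least 97.7% of each total.

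The 12344 genes that averaged 1 FPKM or more over the libraries were tested as log2(FPKM + 1) in limma 3.58.1 under R 4.3.3, with a mean-variance trend, two-sided, Benjamini-Hochberg adjusted over all of them. The code was checked on simulated data with the wild-type spread in both groups, so the check does not cover the wider spread of the knockout-labelled libraries. All 33 members passed this filter. Each difference is the knockout-labelled mean less the wild-type mean, and printed folds are ratios of FPKM. Calls of at least 2-fold, and the dashed lines in the figures, use a difference of 1 on the log2(FPKM + 1) scale instead. FPKM are scaled to all reads over genes, so abundant genes that differ shift the rest.

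The members and lists were chosen with earlier results of these data known. Values in every library were given for the regulators, Ccng1, Fas, Plk2 and Perp, for up to 4 members per role and direction without overlap, up to 2 with the knockout-labelled libraries on opposite sides, and up to 3 genes of each other list by smallest p. Others named beyond that rule were chosen after their values were seen.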

Additional observations from a re-analysis of the deposited data

How the results depend on the processing

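The count of members past the threshold was 0 in the main fit and under every alternative that kept all 4 libraries, and between 0 and 28 when 1 library was left out. Over all genes the count was 2, and it was 1 with a pseudocount of 0.1, 1 with 0.01, 0 with voom on the reads and 0 with the replicate block, and ranged from 0 to 7415 when 1 library was left out. The replicate block used the number in the titles as a term; deviations of same-numbered libraries had a correlation of 0.006 over 12344 genes, so the numbers were not taken as pairs. The number of members below both wild-type libraries was 15, and 15 to 26 when 1 library was left out, and that above both was 6, and 6 to 15. The median log2 difference of the members was -0.45 and ranged from -0.67 to -0.04 when 1 library was left out. The counts of 2-fold differences and the chromosome medians were added after the data were seen; under the other settings run, 13 to 15 members were at least 2-fold lower in knockout 2 and 3 to 5 in knockout 1.
The log2 difference of Tigar was -0.023 with trimmed-mean scaling, -0.067 with quantile normalization and -0.034 with voom, against 0.00. When 1 library was left out, differences that changed sign ranged from -2.26 to 0.16 for Ccng1, -2.11 to 0.0096 for Eda2r, -1.71 to 0.082 for Mdm2, -1.57 to 0.16 for Pidd1, -1.07 to 0.61 for Trp53inp1, -0.64 to 0.18 for Zmat3, -0.59 to 0.025 for Polk, -0.56 to 0.17 for Ercc5, -0.35 to 0.10 for Ei24, -0.32 to 0.082 for Dram1 and -0.037 to 0.043 for Tigar. The higher end is the value without knockout 2, except for Dram1, where it is that without knockout 1.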
